A study of Mus musculus with 8 samples.

Results

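The genes described here are 36 protein-coding genes of glycolysis and of the hypoxia response, out of 55450 genes in the deposited count table. They were chosen by name, with earlier results of these data known. Each gene ID of the table was matched to GENCODE mouse M21 (GRCm38), and all 36 were found. Aldoa matched 2 gene IDs, and the ID with more counts was used. Core glycolysis holds 18 of them, the glycolytic enzymes with the glucose and lactate transporters. A set of 3 holds regulators of glycolytic flux that are also hypoxia targets (Pdk1, Pfkfb3 and Pfkfb4), and 15 are hypoxia targets outside glycolysis. Levels were measured by total RNA sequencing, after depletion of ribosomal RNA, in RAW264.7 cells, a mouse macrophage cell line. The cells carried either a non-silencing short hairpin RNA (shNS, the control line) or a hairpin against Dis3l2 (shDis3l2), which encodes an exonuclease that degrades RNA from its 3′ end. Each line was grown for 4 days with 1 µg/mL doxycycline (3 libraries per line) or without it (1 library per line), in the same medium with fetal bovine serum, and the labels mention no low-oxygen step. The labels do not say whether a line is 1 clone, nor whether replicates were separate cultures, so p-values below measure only the spread between these libraries, which may be technical.

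Glycolysis converts glucose to pyruvate in the cytosol, and lactate dehydrogenase reduces pyruvate to lactate when mitochondria take up less of it. Hypoxia-inducible factors (HIF) are transcription factors made of an oxygen-labile alpha subunit and the stable partner ARNT. Prolyl hydroxylases mark the alpha subunit for destruction when oxygen is present, and without that mark HIF binds short hypoxia response elements and raises glucose transporters, most glycolytic enzymes, and genes of mitophagy, angiogenesis and collagen folding. Macrophages are known to use the same program when activated by inflammatory stimuli.

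The hypoxia response element has the core letters ACGTG or GCGTG. The genes were chosen by name and not by this sequence. Many are listed as hypoxia targets, so more matches than in other genes could be foreseen. RefSeq promoter windows (GRCm38.p6) were found for 33 of the 36 genes, all but Slc2a3, Ero1l and Ndrg1. In the 250 bases before the start of any of their transcripts, on either strand, 28 of the 33 genes (84.8%) held at least 1 of the motifs, against 41.5% of 27025 genes with a window. ACGTG was found in 51.5% of the 33 against 18.5% of all genes, and GCGTG in 69.7% against 30.9%. The listed genes have more windows per gene, and per window the shares were 75.5% of 53 and 38.6% of 32851. No match was found for Gpi1, Tpi1, Eno2, Gys1 and Gbe1, which says only that these letters are not in these windows. Among genes lower in shDis3l2 with doxycycline at the threshold used below, 15 of 17 with a window (88.2%) held a motif, against 84.8% of the 33. Below, 6 promoters are shown as examples. Their genes are among those lower in shDis3l2 and carry several matches each, as do others that are not shown, such as Pfkp. Each run is the 150 bases before a RefSeq transcript start, 5′ to 3′ on the gene's strand, with matches to ACGTG or GCGTG, or to the same motifs on the other strand (read here as CACGT or CACGC), in capitals. A capital run of CACGTG is ACGTG read on both strands, counted as overlapping matches. A match is a description of the sequence and not a measured binding site. The positions are chr7:138909507-138909656 (minus strand) for Bnip3, chr7:46845654-46845803 (plus strand) for Ldha, chrX:106186950-106187099 (plus strand) for Pgk1, chr19:41911721-41911870 (plus strand) for Pgam1, chr10:59323146-59323295 (plus strand) for P4ha1 and chr2:11502091-11502240 (minus strand) for Pfkfb3.
Bnip3: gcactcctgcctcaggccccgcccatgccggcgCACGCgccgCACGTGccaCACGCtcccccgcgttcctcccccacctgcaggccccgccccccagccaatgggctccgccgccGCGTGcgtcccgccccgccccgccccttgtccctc
Ldha: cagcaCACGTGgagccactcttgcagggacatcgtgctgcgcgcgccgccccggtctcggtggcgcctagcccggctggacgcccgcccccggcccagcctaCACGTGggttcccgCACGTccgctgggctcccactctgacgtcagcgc
Pgk1: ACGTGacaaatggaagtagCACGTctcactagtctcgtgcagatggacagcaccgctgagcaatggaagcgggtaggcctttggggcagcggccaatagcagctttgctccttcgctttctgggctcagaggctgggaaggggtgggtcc
Pgam1: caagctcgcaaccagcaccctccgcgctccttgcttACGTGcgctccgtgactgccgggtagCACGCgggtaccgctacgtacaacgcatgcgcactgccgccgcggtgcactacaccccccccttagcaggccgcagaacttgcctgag
P4ha1: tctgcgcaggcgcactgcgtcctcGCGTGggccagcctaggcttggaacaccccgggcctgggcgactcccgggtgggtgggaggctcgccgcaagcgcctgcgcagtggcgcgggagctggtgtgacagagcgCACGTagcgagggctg
Pfkfb3: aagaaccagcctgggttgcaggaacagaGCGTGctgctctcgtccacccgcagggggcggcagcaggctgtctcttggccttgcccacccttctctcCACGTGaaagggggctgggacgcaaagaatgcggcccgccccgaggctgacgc

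The libraries held 30341823 to 45557804 counts each, with 17388 to 18267 genes detected. Dis3l2, the targeted gene, was at 33.0, 28.7 and 22.0 CPM (counts scaled to a common library size by TMM, a normalization that discounts extreme genes) in shNS with doxycycline and at 12.0, 13.5 and 14.9 CPM in shDis3l2 with doxycycline (log2 fold change -1.05, edgeR adjusted p = 0.0216, and up to 0.112 when any 1 shDis3l2 library was left out). Without doxycycline it was at 29.7 CPM in shNS and 28.6 CPM in shDis3l2. All 10 macrophage markers were detected, while 4 of 4 epithelial, 4 of 5 fibroblast and 3 of 5 lymphoid markers had no count in any library. Summed, the macrophage markers ran from 7846 to 11637 CPM in shNS with doxycycline and from 6700 to 9390 CPM in shDis3l2 with doxycycline, and the part of these levels in the results below was not tested. Of the 10, Adgre1 (log2 fold change -2.70, edgeR adjusted p = 0.0368) and Mrc1 (-3.19, adjusted p = 0.0244) were lower in shDis3l2, while 5 had a log2 fold change above 0 that did not pass the test (Csf1r 0.52, Itgam 0.58, Fcgr1 0.52, Cd14 0.24 and Ptprc 0.08). Cd68 (-0.70) and Lyz2 (-0.72) were below 0 and did not pass, nor did Mertk, which had no count in shDis3l2 with doxycycline. Without doxycycline, Adgre1 was at 78.8 CPM in shNS and 5.01 CPM in shDis3l2, and Mrc1 at 2.55 and 0.33 CPM. Adgre1 lost its call in 4 of 6 fits that left out 1 library (adjusted p up to 0.11), and Mrc1 without any 1 shDis3l2 library (up to 0.115). Replicate 2 of shNS with doxycycline stood apart from its group together with the untreated shNS library: the macrophage receptor Mertk was at 41.5 and 46.6 CPM in these and at most 0.892 CPM in the other libraries. Except for Egln1, results are therefore given below without that library wherever a call changes. The part of that library in the results that keep their call was tested only by leaving it out.

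With doxycycline, genes from the glucose transporter Slc2a3 to the lactate dehydrogenase Ldha, and hypoxia targets such as Bnip3 and Ero1l, were lower in shDis3l2 than in shNS. Of the 36 genes, 35 passed the filter on low counts, and 19 of these were lower at an adjusted p below 0.05 (edgeR quasi-likelihood test over 13752 genes) and 0 were higher. Over all genes tested, 4.01% were called lower and 2.13% higher, or 6.14% in either direction. The genes were chosen with earlier results of these data known, so setting their calls beside these shares is not a test of the list. The calls held 8 of 18 core glycolysis genes, 2 of 3 regulators and 9 of 14 hypoxia targets outside glycolysis. All 35 fitted log2 fold changes were below 0, as were 50.3% of those of all genes. The median log2 fold change was -1.03 over the 35 genes, -0.80 for core glycolysis, -0.86 for the regulators and -1.67 for the hypoxia targets, against 0.00 over all genes. In 29 of the 35 genes every shDis3l2 library was below every shNS library (14.6% of all genes). The groups overlapped for Slc2a1, Hk1, Aldoc, Gapdh, Pfkfb4 and Ndrg1. Without Adm, which entered the test through the shNS libraries alone, 18 of 34 genes were lower, 8 of 13 hypoxia targets among them. The medians were then -1.01 over the 34 genes and -1.60 over the 13 hypoxia targets. Every shDis3l2 library was below every shNS library in 28 of the 34. The count of 19 became 4 without shDis3l2 replicate 2 (0.914% of all genes called lower), 5 without shDis3l2 replicate 3 (1.18%) and 10 without shNS replicate 3 (3.61%), and it was 17 without shNS replicate 2 (4.31%). DESeq2 called 30 of the genes lower (8.04% of all genes), and a fit of line and doxycycline as additive terms over all 8 libraries called 10 lower (6.21%). In RNA from whole cultures, fewer cells with high levels and less RNA per cell cannot be told apart.

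**Figure D1:**
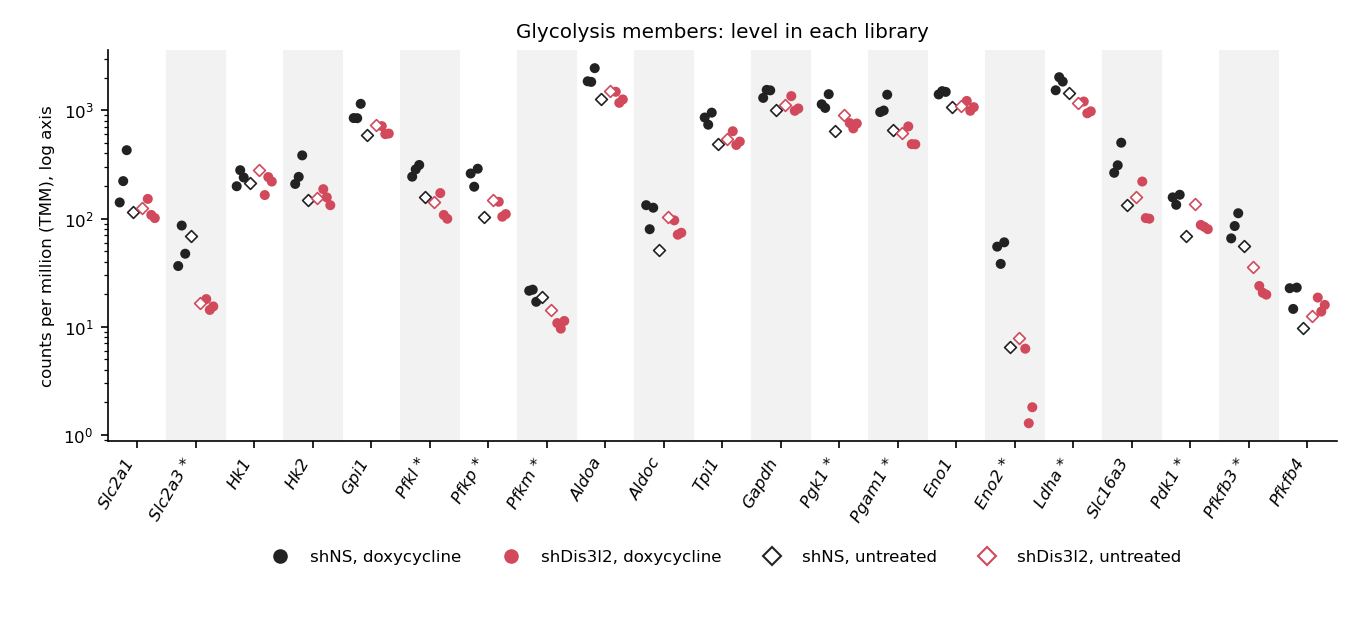
Level of the 18 core glycolysis genes and the 3 regulators in each of the 8 libraries, as TMM-normalized CPM on a log axis. Filled circles are doxycycline-treated libraries, open diamonds untreated ones, and an asterisk marks the 10 genes lower in shDis3l2 than in shNS with doxycycline at an adjusted p below 0.05. In 18 of these 21 genes the untreated shNS diamond lies below all 3 treated shNS circles.

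Glucose enters macrophages through GLUT1 and GLUT3. Slc2a3, which encodes GLUT3 (chromosome 6, 122727809 to 122801640), was at 36.4, 86.2 and 47.3 CPM in shNS replicates 1, 2 and 3 and at 18.0, 14.3 and 15.4 CPM in shDis3l2 (log2 fold change -1.83, SE 0.32, edgeR adjusted p = 0.0218). Every shDis3l2 library was below every shNS library. Slc2a1, which encodes GLUT1, was at 141, 222 and 429 CPM against 152, 108 and 101 CPM, and shDis3l2 replicate 1 lay above shNS replicate 1 (log2 fold change -1.13, adjusted p = 0.170). At the other end of the pathway, Slc16a3 (chromosome 11, 120948480 to 120960868), the lactate exporter MCT4, was at 265, 311 and 503 CPM in shNS and at 220, 101 and 99.7 CPM in shDis3l2. Its groups did not overlap, but the adjusted p was 0.0992 (log2 fold change -1.35, SE 0.39). Leaving out 1 library brought Slc2a1 past the threshold without shNS replicate 1 (adjusted p = 0.0487) and Slc16a3 without shDis3l2 replicate 1 (0.0484).

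Phosphofructokinase, which commits sugar to glycolysis, is built from liver, platelet and muscle subunits, and all 3 subunit genes were lower in shDis3l2. Pfkl (chromosome 10, 77986947 to 78010083) was at 244, 285 and 313 CPM in shNS and at 172, 108 and 99.6 CPM in shDis3l2 (log2 fold change -1.15, SE 0.23, edgeR adjusted p = 0.0313). Pfkp (chromosome 13, 6579768 to 6648777) was at 261, 197 and 289 CPM against 143, 104 and 110 CPM (-1.06, SE 0.20, adjusted p = 0.0239). Pfkm (chromosome 15, 98092589 to 98132451), the least abundant subunit, was at 21.5, 22.0 and 17.0 CPM against 10.8, 9.60 and 11.3 CPM (-0.93, SE 0.16, adjusted p = 0.0203). For none of the 3 genes did the groups overlap. The hexokinases, which trap glucose in the cell, did not pass the test: Hk2 had a log2 fold change of -0.81 (adjusted p = 0.114) and Hk1 of -0.19 (adjusted p = 0.651).

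In the later steps of the pathway, 4 genes were called. Pgk1 (chromosome X, 106187100 to 106203699), the phosphoglycerate kinase that makes the first ATP of the payoff phase, was at 1140, 1055 and 1414 CPM in shNS and at 764, 682 and 757 CPM in shDis3l2 (log2 fold change -0.71, SE 0.16, edgeR adjusted p = 0.0475). Pgam1 (chromosome 19, 41911923 to 41918660), the phosphoglycerate mutase that follows it, was at 965, 998 and 1398 CPM against 711, 488 and 486 CPM (-0.99, SE 0.22, adjusted p = 0.0467). Both genes carry ACGTG in the promoters printed above, and neither showed an overlap between the groups. Ldha (chromosome 7, 46841475 to 46855627), the lactate dehydrogenase subunit that favours lactate formation, was at 1536, 2030 and 1849 CPM against 1209, 941 and 981 CPM (-0.79, SE 0.18, adjusted p = 0.0463). Eno2 (chromosome 6, 124760053 to 124769673), the enolase isoform best known from neurons, had the lowest log2 fold change of the core genes. It was at 55.0, 38.1 and 60.3 CPM in shNS and at 6.26, 1.28 and 1.80 CPM in shDis3l2, 6.10% of the shNS mean (-4.02, SE 0.64, adjusted p = 0.0208). The shDis3l2 libraries differed among themselves here, with replicate 1 above the other 2.

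The remaining core genes were Hk1, Hk2, Gpi1, Aldoa, Aldoc, Tpi1, Gapdh and Eno1, with Slc2a1 and Slc16a3 given above. Their levels in shDis3l2 were 57.0% (Hk2) to 87.3% (Hk1) of the shNS mean, and their adjusted p-values ran from 0.08 (Tpi1) to 0.651 (Hk1). Aldoa, the main aldolase, was at 1860, 1836 and 2460 CPM in shNS and at 1487, 1176 and 1264 CPM in shDis3l2 (log2 fold change -0.65, SE 0.18, edgeR adjusted p = 0.0881), with no overlap. The enolase main isoform Eno1 was at 1406, 1508 and 1484 CPM against 1224, 992 and 1072 CPM (-0.42, adjusted p = 0.158). Together the 18 core genes held 1.20%, 1.18% and 1.36% of all counts in shNS with doxycycline and 0.891%, 0.755% and 0.796% in shDis3l2 with doxycycline. Untreated, the share was 0.818% in shNS and 0.919% in shDis3l2, so the untreated shNS library lay within the range of the treated shDis3l2 libraries.

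None of the 8 core calls held whichever of the 6 libraries was left out. All 8 missed the threshold without shDis3l2 replicate 2 and again without shDis3l2 replicate 3. Without shNS replicate 3, Pfkl, Pfkp, Pgk1, Pgam1, Eno2 and Ldha missed it, without shDis3l2 replicate 1, Slc2a3, Pfkm, Pgk1 and Ldha, without shNS replicate 2, Pgk1, Pgam1 and Ldha, and without shNS replicate 1, Pgk1. The highest edgeR adjusted p over these fits was 0.116 for Slc2a3, 0.144 for Pfkl, 0.124 for Pfkp, 0.122 for Pfkm, 0.231 for Pgk1, 0.201 for Pgam1, 0.0901 for Eno2 and 0.220 for Ldha. The log2 fold changes of the 8 genes stayed below 0 in all 6 fits, from -5.04 to -3.64 for Eno2 and from -0.80 to -0.58 for Pgk1.

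Among the regulators, Pfkfb3 and Pdk1 were lower in shDis3l2. Pfkfb3 (chromosome 2, 11471433 to 11554077) encodes the kinase isoform that makes fructose 2,6-bisphosphate, the strongest activator of phosphofructokinase. It was at 65.6, 85.3 and 112 CPM in shNS and at 23.8, 20.6 and 19.8 CPM in shDis3l2, 24.4% of the shNS mean (log2 fold change -2.03, SE 0.21, edgeR adjusted p = 0.00369), the smallest adjusted p of the 35 genes. Its call held whichever of the 6 libraries was left out (adjusted p 0.00391 to 0.0271). Pdk1 (chromosome 2, 71873224 to 71903858), which inhibits pyruvate dehydrogenase, was at 157, 134 and 166 CPM against 87.3, 83.9 and 79.8 CPM (-0.86, SE 0.13, adjusted p = 0.0125). Its call was lost without shDis3l2 replicate 2 or replicate 3 (adjusted p up to 0.0880). The paralogue Pfkfb4 was at 22.7, 14.6 and 23.0 CPM against 18.6, 13.8 and 15.9 CPM, with overlapping groups (-0.32, adjusted p = 0.467).

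**Figure D2:**
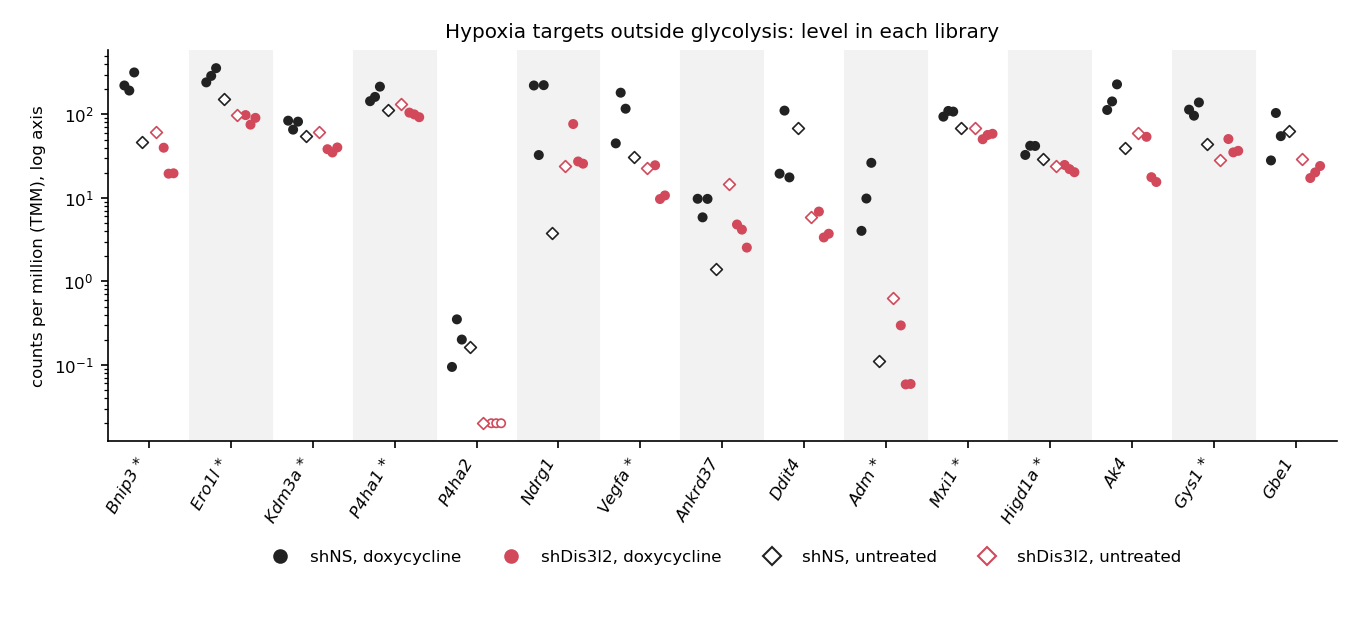
Level of the 15 hypoxia targets outside glycolysis in each of the 8 libraries, as TMM-normalized CPM on a log axis, with the marks of the plot of glycolysis levels. An asterisk marks 9 genes lower in shDis3l2 with doxycycline, and the open marks at the foot of the P4ha2 column are libraries without a count, drawn at an arbitrary height. Bnip3 and Adm show wide gaps between treated shNS and treated shDis3l2 libraries, and Vegfa and Ak4 narrower ones. In these genes the untreated libraries of both lines lie between or near the lower group.

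Hypoxia targets outside glycolysis had a median log2 fold change of -1.67 (-1.60 without Adm), against -0.80 for core glycolysis. Whether these groups of genes differ was not tested. Bnip3 (chromosome 7, 138890836 to 138909519), a mitochondrial receptor for mitophagy, was at 222, 193 and 318 CPM in shNS and at 39.9, 19.5 and 19.7 CPM in shDis3l2, 10.8% of the shNS mean (log2 fold change -3.21, SE 0.36, edgeR adjusted p = 0.00558). Its promoter, printed above, held 5 motif matches in 150 bases. Ero1l (chromosome 14, 45283087 to 45318771), the oxidase that forms disulfide bonds in the endoplasmic reticulum, was at 242, 289 and 358 CPM against 98.1, 75.4 and 90.9 CPM (-1.75, SE 0.19, adjusted p = 0.00431). Gys1 (chromosome 7, 45434844 to 45456619), the glycogen synthase, was at 114, 96.5 and 139 CPM against 50.7, 35.1 and 36.6 CPM (-1.51, SE 0.20, adjusted p = 0.00867). These 3 genes had no overlap between the groups, and with Pfkfb3 they were the 4 of 19 calls that held whichever of the 6 libraries was left out (highest adjusted p 0.0293, 0.0297 and 0.0496).

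Several targets with narrower gaps also passed the test. Kdm3a (chromosome 6, 71588972 to 71632990), a histone H3 lysine 9 demethylase, was at 84.1, 65.7 and 81.9 CPM in shNS and at 38.3, 35 and 40.2 CPM in shDis3l2 (log2 fold change -1.03, SE 0.14, edgeR adjusted p = 0.00962). Mxi1 (chromosome 19, 53310518 to 53375810), which opposes Myc, was at 94.0, 110 and 108 CPM against 50.4, 56.7 and 58.6 CPM (-0.91, SE 0.13, adjusted p = 0.0101). P4ha1 (chromosome 10, 59323296 to 59373304), the catalytic subunit of collagen prolyl 4-hydroxylase, was at 144, 162 and 215 CPM against 105, 100 and 92.6 CPM (-0.80, SE 0.17, adjusted p = 0.0396). Each of the 3 genes had non-overlapping groups. Higd1a (chromosome 9, 121848563 to 121858362), a mitochondrial protein induced by hypoxia, was at 32.7, 42.1 and 41.9 CPM against 24.8, 22.1 and 20.3 CPM (-0.79, SE 0.15, adjusted p = 0.0276), again without overlap. Kdm3a lost its call without shDis3l2 replicate 2 (adjusted p up to 0.0693) and Mxi1 without shDis3l2 replicate 2 or 3 (up to 0.0723). P4ha1 lost it without shNS replicate 3 or any of the 3 shDis3l2 libraries (up to 0.175), and Higd1a in every such fit but the one without shNS replicate 1 (up to 0.139).

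Vegfa and Adm, a pair of secreted vascular factors, varied widely within shNS. Vegfa (chromosome 17, 46016993 to 46032369), the angiogenic growth factor, was at 45.0, 182 and 117 CPM in shNS and at 24.6, 9.69 and 10.7 CPM in shDis3l2, 13.1% of the shNS mean (log2 fold change -2.93, SE 0.62, edgeR adjusted p = 0.0483). Only the fit without shNS replicate 1 kept its call (highest adjusted p 0.197). Adm (chromosome 7, 110627661 to 110629820), which encodes the vasodilator peptide adrenomedullin, was at 4.03, 9.83 and 26.3 CPM in shNS and at 0.297, 0.0584 and 0.0591 CPM in shDis3l2, where the counts were 13, 2 and 2. Adm passed the low-count filter through the shNS libraries alone, so a difference was built into its inclusion and its p-value is not given. Summed and scaled to the library sizes, its counts were 90.1 times higher in shNS (95% exact counting interval 56.1 to 155, counting error only).

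Ddit4, Ak4, Ndrg1, Gbe1 and Ankrd37 did not pass the test, although their fitted changes were large. Ak4 (chromosome 4, 101419277 to 101466995), a mitochondrial adenylate kinase, was at 113, 143 and 229 CPM in shNS and at 53.9, 17.7 and 15.5 CPM in shDis3l2 (log2 fold change -2.48, SE 0.56, edgeR adjusted p = 0.0586). Ankrd37 (chromosome 8, 45996902 to 46005707), an ankyrin-repeat protein known as a HIF target, was at 9.76, 5.85 and 9.73 CPM against 4.80, 4.17 and 2.54 CPM (-1.13, SE 0.32, adjusted p = 0.0888). For both genes the groups did not overlap, and shDis3l2 replicate 1 was the highest of its group. Ddit4 (chromosome 10, 59949669 to 59951834), an inhibitor of mTORC1, was at 19.5, 111 and 17.6 CPM against 6.86, 3.36 and 3.72 CPM (-3.41, SE 0.87, adjusted p = 0.0847). Gbe1 (chromosome 16, 70313949 to 70569716), the glycogen branching enzyme, was at 28.1, 104 and 54.9 CPM against 17.3, 20.2 and 24.1 CPM (-1.60, SE 0.45, adjusted p = 0.0970). In both of these, shNS replicate 2 was far above the other shNS libraries. Ndrg1 (chromosome 15, 66929318 to 66969640), a stress-response protein, showed the opposite order, with 222, 32.6 and 224 CPM in shNS against 76.7, 27.3 and 25.7 CPM in shDis3l2 (-1.88, SE 0.82, adjusted p = 0.269). P4ha2 was hardly expressed: it had 3, 12 and 7 counts in shNS with doxycycline, 6 in untreated shNS and none in the 4 shDis3l2 libraries. It was left out by the filter of this comparison. In the fits over all 8 libraries it passed the filter, but it was kept out of the medians and counts over 35 genes. Each of the 5 uncalled genes passed the threshold when 1 library was left out: Ak4 without shDis3l2 replicate 1 (adjusted p = 0.0237), Gbe1 without shNS replicate 1 (0.02), and Ankrd37 (0.0454), Ddit4 (log2 fold change -1.99, adjusted p = 0.0127) and Ndrg1 (0.0344) without shNS replicate 2.

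The untreated libraries address whether the lines also differed without doxycycline, with 1 library per line and therefore no test. Over 35 genes without P4ha2, the median log2 ratio of untreated shDis3l2 to untreated shNS was 0.16 (0.15 for core glycolysis, 0.36 for the regulators and 0.09 for the hypoxia targets), against 0.00 over 15250 genes. In 23 of the 35 genes the untreated shDis3l2 library was the higher one (49.6% of all genes). Genes at least 2-fold lower in untreated shDis3l2 numbered 3 of 35 (11.5% of all genes), and those at least 2-fold higher 4 of 35 (9.29%). The 3 lower ones were Ddit4, with a ratio of 0.0873 (95% counting interval 0.0760 to 0.0999), Slc2a3, with 0.243 (0.222 to 0.265), and Gbe1, with 0.464 (0.432 to 0.499). The 4 higher ones were Ankrd37 (ratio 10.5, interval 7.84 to 14.2), Ndrg1 (6.47, 5.41 to 7.80), Adm (5.79, 2.00 to 22.9, on 25 against 4 counts) and Aldoc (2.01, 1.91 to 2.13). All intervals cover counting error only. In all, 12 of the 35 genes were lower in untreated shDis3l2 than in untreated shNS, the direction seen with doxycycline. Besides Slc2a3, Ddit4 and Gbe1 they included Pfkfb3 (ratio 0.640, interval 0.597 to 0.685), Ero1l (0.638, 0.612 to 0.665) and Gys1 (0.638, 0.591 to 0.689). Other genes had the opposite direction: Bnip3 was at 46.5 CPM in untreated shNS and 61.9 CPM in untreated shDis3l2, and Eno2 at 6.53 and 7.91 CPM.

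**Figure D3:**
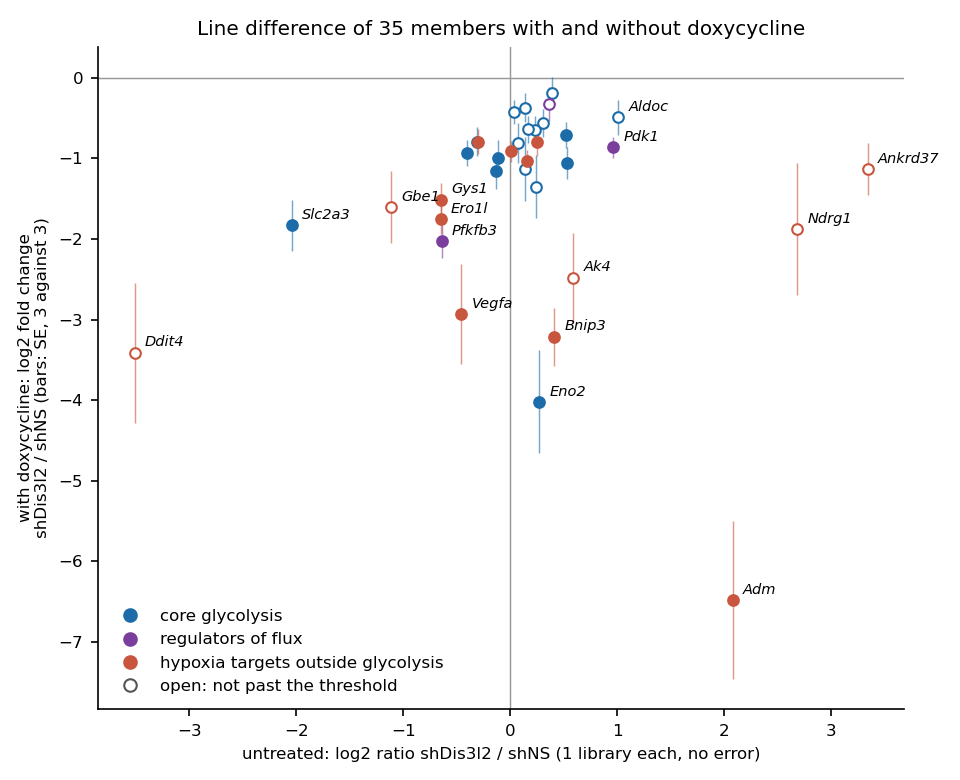
Difference between the lines for 35 genes, with the untreated log2 ratio on the x axis (1 library per line, no error) and the doxycycline log2 fold change on the y axis (bars are standard errors, 3 libraries against 3). Filled points passed the threshold. All points lie below 0 on the y axis, while 23 lie to the right of 0 on the x axis.

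Within shNS, the levels of most of the genes lay higher in the doxycycline-treated libraries than in the untreated one. The untreated shNS library was below all 3 treated shNS libraries in 30 of 35 genes (23.8% of all genes) and above all 3 in 0 (22.8%). The median log2 fold change with doxycycline in shNS was 0.84 (0.77 for core glycolysis, 1.03 for the regulators and 1.17 for the hypoxia targets), against 0.01 over all genes. Pdk1 was at 69.5 CPM untreated against 134 to 166 CPM treated, and Bnip3 at 46.5 CPM against 193 to 318 CPM. No gene of the 15250 passed the adjusted threshold in this comparison of 3 libraries with 1. At an unadjusted p below 0.05, 19 of 35 genes were higher and 0 lower, with 2.95% of all genes higher and 1.29% lower. Without shNS replicate 2, 6 of the genes rose with doxycycline past the adjusted threshold (1.66% of all genes): Pdk1 (log2 fold change 1.20, edgeR adjusted p = 0.0229), Ankrd37 (2.78, 0.0225), Ndrg1 (5.87, 0.0208), Pfkp (1.39, 0.0345), Aldoc (1.31, 0.0361) and Gys1 (1.48, 0.0372). In the same fit Ddit4 fell by 1.89 on the log2 scale (adjusted p = 0.0412, 1.93% of all genes lower).

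Within shDis3l2, the treated libraries lay nearer to the untreated one, and the median log2 fold change with doxycycline was -0.32 (-0.18 for core glycolysis, -0.70 for the regulators and -0.46 for the hypoxia targets), against 0.00 over all genes. No gene passed the adjusted threshold. At an unadjusted p below 0.05, 5 of 35 genes were lower (1.09% of all genes) and 0 higher (2.22%). These 5 were Pdk1 (log2 fold change -0.70), Pfkfb3 (-0.74), Bnip3 (-1.23), Kdm3a (-0.72) and Ankrd37 (-1.93), and none of them is a core glycolysis gene. The untreated shDis3l2 library was above all 3 treated ones in 18 of 35 genes (29.5% of all genes) and below all 3 in Pfkfb4, Ndrg1 and Gys1 (29.4%). Pdk1 was at 135 CPM untreated against 79.8 to 87.3 CPM treated, the opposite order to that in shNS.

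**Figure D4:**
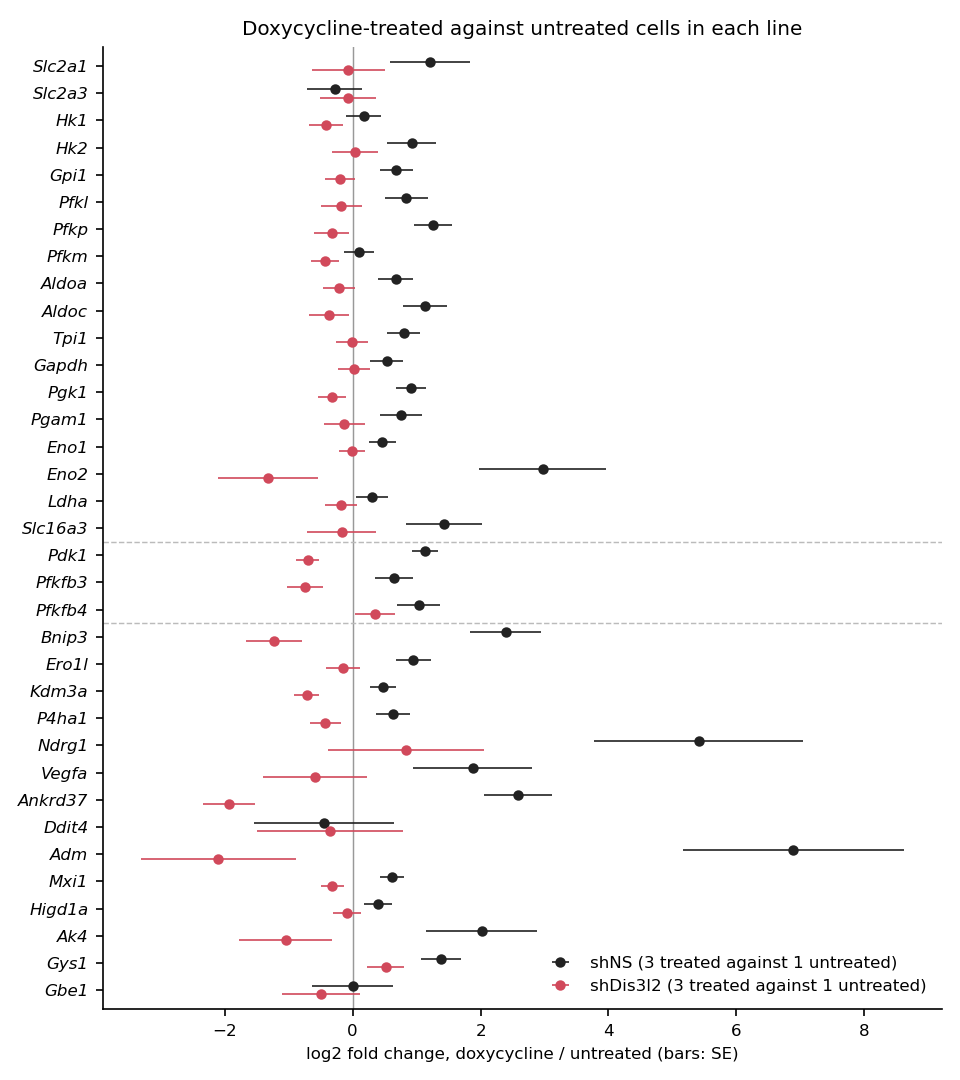
Log2 fold change of doxycycline-treated against untreated cells for 35 genes, fitted in shNS (black) and in shDis3l2 (red), with standard errors, each from 3 treated libraries and 1 untreated library. Dashed lines part core glycolysis, regulators and hypoxia targets. Most shNS points lie above 0 (median 0.84), and most shDis3l2 points lie at or below 0 (median -0.32).

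The difference between the doxycycline effects of the lines was tested as an interaction over all 8 libraries. No gene of 15250 passed the adjusted threshold, with 3.78% at an unadjusted p below 0.05. The fitted difference was below 0 in 33 of 35 genes (50.8% of all genes), with a median of -1.01 against -0.01 over all genes. At an unadjusted p below 0.05, 17 of 35 genes had a lower effect in shDis3l2 (2.17% of all genes) and 0 a higher one (1.61%): 6 of 18 core genes, 2 of 3 regulators and 9 of 14 hypoxia targets. Pdk1 (difference -1.83, SE 0.26) and Ankrd37 (-4.52, SE 0.68) had the smallest p-values, with an edgeR adjusted p of 0.704 each. Without shNS replicate 2 both passed the adjusted threshold (Pdk1 -1.90, adjusted p = 0.0292, Ankrd37 -4.71, adjusted p = 0.0186, with 0.455% of all genes lower). Slc2a3 (0.21) and Ddit4 (0.11) were the exceptions with a difference above 0. Each of these values rests on a single untreated library per line, which was assumed to vary like the others, and on 4 residual degrees of freedom. The same treated libraries enter the comparison of the lines and the doxycycline effects, so these comparisons do not stand on separate data.

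**Figure D5:**
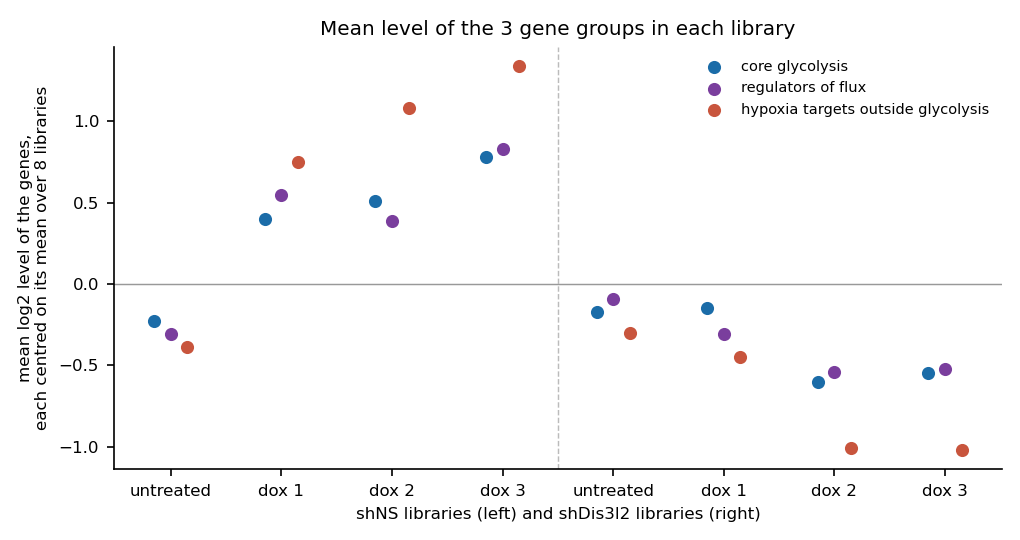
Mean log2 level of the core glycolysis genes, the regulators and the hypoxia targets outside glycolysis in each library, each gene centred on its mean over the 8 libraries. The 3 treated shNS libraries lie between 0.39 and 1.34, and the other 5 libraries lie below 0.

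In core glycolysis and the hypoxia targets alike, the 3 treated shNS libraries had the highest mean levels. The mean centred log2 level of core glycolysis was 0.40, 0.51 and 0.78 in treated shNS, -0.15, -0.60 and -0.55 in treated shDis3l2, -0.23 in untreated shNS and -0.17 in untreated shDis3l2. For the hypoxia targets the values were 0.75, 1.08 and 1.34, then -0.45, -1.01 and -1.02, then -0.39 and -0.30. Treated shNS libraries were thus the only ones above 0 in both groups of genes. Replicate 1 of treated shDis3l2 was the highest of its group in 30 of 35 genes (45.3% of all genes), as in Ak4, Bnip3 and Eno2. In treated shNS, replicate 3 was the highest in 21 of 35 genes (33.3% of all genes), replicate 2 in 11 (31.4%) and replicate 1 in 3 (35%). Slc2a3, Ddit4 and Gbe1 were highest in shNS replicate 2 and were also high in untreated shNS, at 68.6, 67.8 and 62.5 CPM. Ndrg1 was low in both of these libraries, at 32.6 and 3.76 CPM.

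Levels can be compared between genes only per length, here as CPM per kilobase of the union of a gene's exons. From the counts assigned to the genes themselves, Aldoa had the highest mean of the 36 genes in treated shNS (705), followed by Pgam1 (565), Ldha (545) and Pgk1 (536), and the ranges of these last 3 overlapped. Next came Gapdh (354), Tpi1 (309), Eno1 (273) and Gpi1 (147). The places of Gapdh and Eno1 in this order are uncertain, since near-identical copies held 118% and 107% of their own counts, which this scale leaves out. In treated shDis3l2 Aldoa was again the highest (450), followed by Pgk1 (327), Ldha (315), Pgam1 (283) and Gapdh (273). Pgam1 thus ranked above Pgk1 in treated shNS and below it in treated shDis3l2, with ranges in the latter of 246 to 359 for Pgam1 and 304 to 341 for Pgk1 that overlapped. Bnip3 (108) and Ero1l (56.1) were the highest hypoxia targets outside glycolysis in treated shNS.

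The shares of some paralogues, on the per-length scale, did not overlap between the treated groups. Eno2 made up 4.28%, 2.81% and 4.44% of the sum of Eno1 and Eno2 in treated shNS and 0.582%, 0.148% and 0.192% in treated shDis3l2, with 0.694% and 0.814% in the untreated libraries of shNS and shDis3l2. Treated shNS therefore stood above all other libraries. Pfkfb3 made up 65.1%, 79.0% and 75.8% of Pfkfb3 and Pfkfb4 in treated shNS, 45.1%, 49.0% and 44.6% in treated shDis3l2, and 78.6% and 64.6% in the untreated libraries. Here treated shDis3l2 stood below all other libraries. By contrast, Aldoc made up 3.73% to 6.01% of the aldolases in treated shNS and 4.96% to 5.46% in treated shDis3l2, and Hk2 55.3% to 69.6% and 46.3% to 61.8% of Hk1 and Hk2, with overlapping ranges. Among phosphofructokinase subunits, Pfkl held 58.5% to 66.8% in treated shNS and 56.2% to 64.9% in treated shDis3l2, also overlapping. None of these shares was tested.

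Glycolytic genes have many processed copies in the mouse genome, and reads that fit a gene and its copy can be split between them in an estimated count. Expressed copies of at least 95% identity were found for 9 of the 36 genes. For Gapdh, 65 copies held together 118% of its own counts, mostly in Gm13394 and Gm7336, and for Eno1, 3 copies held 107%, mostly in Eno1b and Gm4735. Copies held 11.2% of the counts of Pgk1, 2.55% for Pgam1 and under 1% for Ldha, Tpi1, Gpi1, Bnip3 and Ak4. The levels of Gapdh and Eno1 themselves are therefore uncertain. With copies added in, Gapdh was at 2904, 3208 and 3371 CPM in treated shNS and at 3025, 2218 and 2203 CPM in treated shDis3l2 (log2 fold change -0.35, edgeR adjusted p = 0.347), and Eno1 had a log2 fold change of -0.42 (adjusted p = 0.189). Pgk1 (-0.72, adjusted p = 0.0438) and Pgam1 (-1.0, adjusted p = 0.0485) kept their calls, and 19 of the genes were called lower in both fits.

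Genes of the same pathways that are not among the 36 were read from lists of their own. These lists were also chosen with earlier results of these data known. Of 31 other hypoxia targets tested, 10 were lower in shDis3l2 with doxycycline and 0 higher (4.01% and 2.13% of all genes). Their median log2 fold change was -0.82, and the same with Egln3, which had no count in shDis3l2, set at its bound. Egln3, Zfp395 and Rora passed the low-count filter through the shNS libraries alone, and without them 8 of 28 were lower, with a median of -0.57. Fam162a, a mitochondrial protein induced by hypoxia, was at 69.3, 97.9 and 88.1 CPM in shNS against 36.6, 28 and 29.5 CPM in shDis3l2 (log2 fold change -1.44, edgeR adjusted p = 0.00643). Cxcr4, a chemokine receptor, was at 11.0, 17.2 and 4.81 CPM against 0.755, 0.905 and 1.09 CPM (-3.58, adjusted p = 0.00962), and the creatine transporter gene Slc6a8 was at 23.9, 111 and 107 CPM against 6.38, 2.80 and 5.14 CPM (-4.07, adjusted p = 0.0229). These last 2 genes were also far apart without doxycycline, with Cxcr4 at 37.1 CPM in shNS and 1.65 CPM in shDis3l2, and Slc6a8 at 73.6 and 3.46 CPM. Zfp395, for which no p-value is given, had 59 counts in treated shNS and 1 in treated shDis3l2 (ratio 65.5, 95% exact counting interval 11.3 to 2632). Fam162a kept its call whichever library was left out, whereas Cxcr4 lost it without shDis3l2 replicate 1 or 2 (adjusted p up to 0.0608), and Slc6a8 without any of the shDis3l2 libraries or shNS replicate 3 (up to 0.121).

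Of 18 other glycolysis genes tested, 3 were lower and 1 higher (median -0.38), against 4.01% and 2.13% of all genes. The phosphoglucomutase gene Pgm1 was lower (log2 fold change -1.38, edgeR adjusted p = 0.00349). Galm, the sugar mutarotase, changed by -1.76 (0.0134) and Hk3, a hexokinase of myeloid cells, by -1.25 (0.0346), on the same log2 scale. Without doxycycline, with 1 library per line, the log2 ratio of shDis3l2 to shNS was -0.44 for Pgm1, -1.88 for Galm and -1.52 for Hk3. Adpgk, an ADP-dependent glucokinase, was the one that was higher, at 66.4, 61.3 and 67.7 CPM in shNS against 109, 106 and 111 CPM in shDis3l2 (0.74, adjusted p = 0.0129). Its untreated levels were 61.3 CPM in shNS and 108 CPM in shDis3l2. Pkm, the pyruvate kinase that completes the pathway between enolase and lactate dehydrogenase, had a difference of the other sign than its neighbours: it was at 4040, 3823 and 4483 CPM in shNS and at 6082, 4987 and 5114 CPM in shDis3l2, without overlap but not past the threshold (0.39, adjusted p = 0.230). Untreated, Pkm was at 2821 CPM in shNS and 5797 CPM in shDis3l2. Adpgk and Pkm both lie on chromosome 9, where 87 genes tested within 5 Mb of either had a median log2 fold change of 0.50 with doxycycline and 0.61 between the untreated lines, and the part of this in the values of Adpgk and Pkm was not tested. Pkm was named here after its values were seen. The call of Pgm1 held whichever library was left out, that of Adpgk was lost without shDis3l2 replicate 2 or 3 (adjusted p up to 0.0766), and that of Galm without any of the shDis3l2 libraries (up to 0.0732). Hk3 lost its call without replicate 2 or 3 of either line (up to 0.134).

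In the branches beside glycolysis few genes passed the test. None of 29 genes of pyruvate entry and the citrate cycle passed the test (median -0.10), the smallest p being that of Idh3a (log2 fold change 0.50, edgeR adjusted p = 0.0618), an isocitrate dehydrogenase subunit also on chromosome 9. None of 8 genes of the pentose phosphate pathway passed (median -0.04). Of 9 genes of glycogen handling, only Gyg passed, the glycogenin that primes glycogen chains (-1.66, adjusted p = 0.00416, median of the list -0.30, held whichever library was left out), beside the members Gys1 and Gbe1 described above. Of all genes, 4.01% were called lower. Without doxycycline, Gyg was at 47.1 CPM in shNS and 20.6 CPM in shDis3l2. Of 6 tested genes in the list of the HIF pathway itself, none passed (median -0.25, or -0.22 over 5 genes without Epas1, described below). The prolyl hydroxylase genes Egln1 and Egln3 were counted among the other hypoxia targets instead. Egln1 was lower in shDis3l2 with doxycycline (log2 fold change -0.97, edgeR adjusted p = 0.0402). Whether its call held when 1 library was left out was not followed. Its untreated log2 ratio of shDis3l2 to shNS was 0.54, with 1 library per line. Egln1 was named here after its values were seen. No p-value is given for Egln3. Hif1a, the main alpha subunit, was at 102, 311 and 201 CPM in treated shNS, 166, 140 and 134 CPM in treated shDis3l2, 329 CPM in untreated shNS and 123 CPM in untreated shDis3l2 (log2 fold change with doxycycline -0.48, adjusted p = 0.544), so its groups overlapped. Epas1, which encodes the HIF-2 alpha subunit, was at 3.46, 83.3 and 5.24 CPM in treated shNS and 61.8 CPM in untreated shNS, with no count in treated shDis3l2. It entered the test through the shNS libraries alone, so its p-value is not given. Both alpha subunits were thus high in shNS replicate 2 and untreated shNS, as were Slc2a3, Ddit4 and Gbe1, whereas Bnip3, Eno2 and Pdk1 were low in untreated shNS.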

How the data were processed

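Total RNA libraries were sequenced as 150 nt paired-end reads, per the labels' protocols. Cutadapt, STAR 2.7 and RSEM are named with GRCm38 in the submitters' processing notes. The authors deposited RSEM expected counts per gene, with no normalization. The sources used here give neither the strand setting nor the annotation release, and all gene IDs matched GENCODE M21. For the count tests, expected counts were made whole by rounding (4.68% to 5.24% of a library's values were not whole).

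Samples were grouped by the labels. Lines were compared with doxycycline by edgeR 4.0.16 (R 4.3.3): TMM scaling, filterByExpr with a minimum count of 10, robust quasi-likelihood fit and two-sided test, and Benjamini-Hochberg adjustment over all genes tested, with a threshold of 0.05. Doxycycline effects and their difference came from 1 fit of 4 groups over 8 libraries. Untreated lines were compared by log2 ratio with a prior count of 2. Levels are TMM-scaled CPM over 8 libraries, computed here, and centred levels used log2(CPM + 0.5). Copies were found by alignment of GENCODE transcripts (at least 95% identity over 50% of the copy, at least 10 counts), a choice made after seeing the data. Alternatives were DESeq2 1.42.0, limma-voom 3.58.1, other scalings and filters, a replicate block, fits over all 8 libraries and leaving out each library. Counts without genes that passed the filter through 1 group alone were added after seeing the data. The fits were also run on simulated counts in which every gene had the same dispersion. That setting checks the code and not the error rates in these libraries.

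Values per library are given for each called member and for the 6 uncalled members of largest fold change with a mean of at least 1 CPM. The remaining members are given by ranges and counts, with a few shown for context. From each companion list, up to 4 called genes of smallest adjusted p were named, or the 1 of smallest p. Members, lists and naming rules were chosen with earlier results of these data known. Replicates differed by far more than counting noise (chi-square per gene at least 17.0), and each library was counted as 1 sample. With 3 libraries against 3, an exact permutation test cannot go below p = 0.10, and none was used.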

Additional observations from a re-analysis of the deposited data

How the results depend on the processing

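In every fit run, 0 of the members were higher in shDis3l2 with doxycycline. Of the 35 members, 19 were lower as reported. The DESeq2 test called 30 of them lower, the replicate block 8, and the additive fit of line and doxycycline over all 8 libraries 10. The additive fit and the settings without a filter or with 4 groups tested 36 members, P4ha2 included. Other settings gave 15 to 20: 19 with DESeq2 size factors, 20 with library size alone, 18 with limma-voom, 15 without a filter, 15 with all 8 libraries as 4 groups, and 19 each with a CPM filter or with copies summed, the last chosen after seeing the data. Leaving out 1 library gave 4 to 20 lower members, with 4 and 5 without shDis3l2 replicates 2 and 3 and 10 without shNS replicate 3. Over all genes, the same fits called 129, 167 and 504 lower against 552 as reported, so calls were also fewer over all genes without either shDis3l2 library. DESeq2 called 1105 lower and 644 higher over all genes, the replicate block 289 and 132, and the additive fit 947 and 533. Same-numbered replicates did not deviate together (correlations -0.128, 0.0262 and -0.00096). These correlations cannot tell whether same-numbered libraries were prepared together, so a pairing was not excluded.

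For doxycycline effects, leaving out 1 library gave 0 to 6 members higher and 0 to 1 lower in shNS, and 0 to 2 members with a lower effect in shDis3l2. All calls came from the fit without shNS replicate 2, and only edgeR was run for these comparisons.

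Of 101 companion genes tested, 14 were lower and 1 higher (4.01% and 2.13% of all genes). The 14 include Egln3 and Zfp395, which passed the low-count filter through the shNS libraries alone. DESeq2 called 23 lower and 4 higher (8.04% and 4.68% of all genes) and the replicate block 9 and 0 (2.1% and 0.96%). Library size alone called 3 higher (2.33%) and the additive fit 2 higher (3.5%). Leaving out 1 library gave 3 to 16 lower (0.914% to 4.65% of all genes) and 0 to 1 higher (0.524% to 3.59%). The causes were not tested. No fold change of a member between the lines with doxycycline changed sign under these settings.

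P4ha2 (at most 12 counts) and Adm in shDis3l2 (2 to 13 counts) are limited by depth.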
